A study of Mus musculus with 12 samples.

Results

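Tumours grown from 2 knockouts of 1 mouse pancreatic cancer line were compared with each other: the libraries labelled EgfrKO against those labelled Klf5KO. The comparison took 6 of the 12 RNA-sequencing libraries, 3 for each label, and the 13662 genes, of 24493 in the table, with a TPM of 1 or more in no fewer than 3 of the 12. TPM, the unit of the table, is the share of a library's transcripts that belongs to a gene, corrected for transcript length and scaled so that every library has the same sum. The cells are named 6649c2, on a C57BL/6 background, and all were sorted out of tumours grown under the skin. The EgfrKO cells carry a knockout of the epidermal growth factor receptor and the Klf5KO cells are labelled as knockouts of Krüppel-like factor 5. WT and Smad4KO libraries of the same cells, 3 each, shared the estimate of the spread, and their values stand beside some results for scale. The labels give no driver mutation of the line, no age or sex of the host mice, and no sorting gate, and are silent on how each knockout was made and whether it is clonal. They also do not say whether the 3 replicates are separate tumours, so the p-values measure the spread between these libraries, which may be technical.

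EGFR is a receptor tyrosine kinase of epithelial cells. When a ligand such as TGF-alpha or amphiregulin binds, it drives the RAS, RAF, MEK and ERK kinase cascade and its transcription factors, among them AP-1 and the ETS factors of the PEA3 group. KLF5 is a zinc-finger transcription factor that binds GC-rich and CACCC-like DNA in gut and pancreatic epithelium, where it is known for supporting the epithelial state. Both genes have been linked to the growth of pancreatic ductal adenocarcinoma. Comparing the 2 knockouts directly shows where tumours labelled for these genes differ, which comparisons with WT alone do not test.

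The libraries were alike in breadth, with 12592 to 13141 genes at 1 TPM or more. Pearson's r of log2(TPM + 1) over the genes tested was 0.98 to 0.987 within a label and 0.948 to 0.961 between EgfrKO and Klf5KO libraries. The depth of sequencing is unknown, because TPM keeps no read counts, and no counting interval is given. In EgfrKO, 18.54% to 19.18% of TPM came from ribosomal protein genes, in WT 19.4% to 19.78%, and in Klf5KO 12.34% to 13.78%. When 1 group of abundant genes takes a smaller share, every other gene takes a larger one, so each comparison was also made after median-of-ratios scaling. That scaling moved the median log2 difference of all genes, EgfrKO minus Klf5KO, from -0.16 to 0.01. Below, "on both scales" means past an adjusted p of 0.05 in the same direction with TPM as deposited and after scaling, and log2 differences are of TPM + 1 as deposited unless said otherwise. A positive log2 difference is higher in EgfrKO.

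The labelled cell type was checked against epithelial markers. Keratin 8, a filament protein of simple epithelia, averaged 2819.5 ± 95.7 TPM in EgfrKO and 1909 ± 137 TPM in Klf5KO (SD, n = 3), and E-cadherin (Cdh1), the adhesion protein of epithelial junctions, 268 ± 12.9 and 243 ± 34.8. Epcam, another usual marker of carcinoma cells, was nearly absent, at 1.30 ± 0.0861 TPM in EgfrKO and 0.539 ± 0.196 in Klf5KO, against 13.5 ± 1.84 in WT. Of 9 tumour epithelial markers tested, 7 were higher in EgfrKO on both scales and 0 in Klf5KO (medians 0.56 and 0.66). Over all genes 14.7% were higher in EgfrKO on both scales. The 10 markers of that list summed to 7430 to 7941 TPM in EgfrKO, 4610 to 5148 in Klf5KO and 5503 to 5983 in WT. The libraries also held transcripts of other cells. The 14 macrophage markers summed to 2395 to 2503 TPM in EgfrKO and 1895 to 3032 in Klf5KO, and the 14 fibroblast markers to 133 to 146 and 315 to 644. In bulk RNA, fewer cells of a type and less RNA per cell cannot be told apart.

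The targeted genes were read first. Egfr, on chromosome 11 at 16752203 to 16913907 of GRCm38.p6, stood at 5.16, 3.77 and 3.94 TPM in the 3 EgfrKO libraries and at 6.99, 8.35 and 5.45 in the 3 Klf5KO libraries, with 13.1 ± 0.85 in WT. The 3 EgfrKO values were the lowest of the 6, and the Klf5KO values lay between them and WT. The log2 difference was -0.58 ± 0.17 (SE), with a limma adjusted p of 0.0124, and -0.40 with an adjusted p of 0.0486 after scaling. Without Klf5KO replicate 2 the call was lost, at -0.45 and an adjusted p of 0.0518, and the two-sided exact permutation test gave p = 0.1, the smallest that 3 against 3 libraries allow. Mean Egfr was 32.7% of the WT mean in EgfrKO and 52.9% in Klf5KO, so transcript remained under the EgfrKO label.

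Klf5, on chromosome 14 at 99298691 to 99313412, stood at 100.5, 87.8 and 93.2 TPM in Klf5KO, 82.5, 88.95 and 83.2 in EgfrKO and 97.1, 109 and 130.3 in WT. The Klf5KO and EgfrKO values overlapped, and Klf5KO was not the lower label. The log2 difference was -0.14 ± 0.10, with a limma adjusted p of 0.238 and an exact permutation p of 0.2, and the sign turned to 0.06 after scaling (adjusted p = 0.628). The TPM of a whole gene does not show whether its transcript still codes for the protein, so the Klf5KO label was not checked by these values, and the libraries are called Klf5KO because they are labelled so. Smad4, the shared partner of TGF-beta and BMP receptor Smads, was targeted in neither group. It stood at 65.8, 64.9 and 61.3 TPM in EgfrKO and 101.0, 90.1 and 96.1 in Klf5KO, with no overlap, a log2 difference of -0.57 ± 0.07 and an adjusted p of 3.5e-05. Relative to WT, at 75.5 ± 4.45 TPM, the Klf5KO libraries were the higher and the EgfrKO libraries the lower.

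Most of the genes tested differed, and in TPM as deposited most were higher in Klf5KO. Of 13662 genes, 7535 (55.2%) passed the threshold: 2007 (14.7%) were higher in EgfrKO and 5528 (40.5%) in Klf5KO. After scaling 7095 (51.9%) passed, 3604 (26.4%) of them higher in EgfrKO and 3491 (25.6%) in Klf5KO. Genes higher in EgfrKO therefore made up 26.6% of the calls as deposited and 50.8% after scaling. When TPM was instead rescaled without ribosomal protein and small RNA genes, 2455 were higher in EgfrKO and 4816 in Klf5KO, nearer to the counts as deposited. The part of the ribosomal share in the direction of the calls was not tested. On both scales, 5493 genes (40.2%) passed in the same direction, 2002 (14.7%) higher in EgfrKO and 3491 (25.6%) in Klf5KO, and these are the shares that the gene groups below are read against. Large differences were fewer. At a log2 difference of 1 or more, 340 called genes were higher in EgfrKO and 471 in Klf5KO, and at 2 or more, 60 and 50. In 8357 genes (61.2%) the 3 values of one label lay wholly above the 3 of the other.

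**Figure D1:**
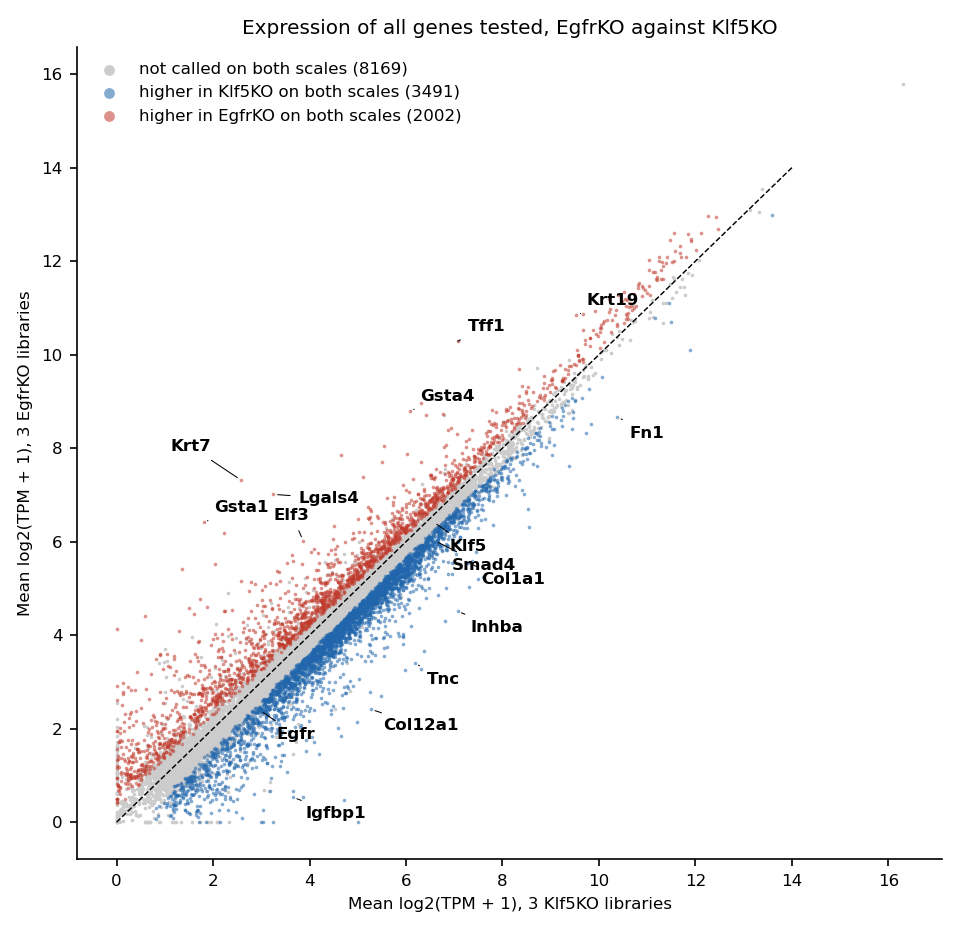
Mean log2(TPM + 1) of each of the 13662 genes tested, with the 3 Klf5KO libraries on the horizontal axis and the 3 EgfrKO libraries on the vertical axis; red and blue points are the 2002 and 3491 genes called on both scales, grey the rest, and the dashed line marks equal values. Krt7, Gsta1, Lgals4 and Tff1 lie far above the line and Igfbp1, Col12a1, Tnc and Inhba far below it, while Klf5 lies close to it.

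Krt7 differed most toward EgfrKO, the type II keratin of ductal epithelium, on chromosome 15 at 101412403 to 101427806. It stood at 166, 153 and 157 TPM in EgfrKO, 5.21, 6.33 and 3.67 in Klf5KO and 58.01, 63.8 and 63.04 in WT. All EgfrKO libraries were above WT and all Klf5KO libraries far below it, and the mean of EgfrKO was 31.3 times that of Klf5KO (log2 difference 4.74 ± 0.12, adjusted p = 1.3e-09). Gcnt3, an enzyme that builds the core O-glycans of mucins, stood at 22.5, 19.6 and 19.02 TPM in EgfrKO and 0.506, 0.727 and 0.335 in Klf5KO. Dmbt1, a secreted scavenger receptor of mucosal surfaces, stood at 47.7, 45.1 and 42.5 and 2.12, 5.03 and 2.73. Tff1, the gastric trefoil peptide secreted with mucus, was the most abundant of these genes, at 1223, 1275 and 1250.3 TPM in EgfrKO, 151, 107 and 147 in Klf5KO and 332, 338 and 212 in WT.

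The log2 differences of Gcnt3, Dmbt1 and Tff1 were 3.82 ± 0.14, 3.48 ± 0.20 and 3.22 ± 0.16 (SE). Car2, a cytosolic carbonic anhydrase, differed in another way: it averaged 229.6 ± 10.2 TPM in EgfrKO and 24.9 ± 7.19 in Klf5KO, and the Klf5KO mean was close to that of WT, 25.97 ± 3.78. The reverse held for Mpzl2, an adhesion protein of epithelia, and for the proton channel gene Otop3, whose EgfrKO means of 20.8 ± 0.413 and 13.9 ± 0.956 TPM were close to the WT means of 17.4 ± 2.33 and 15.4 ± 0.523, while Klf5KO held 2.10 ± 0.68 and 0.461 ± 0.403. The other genes among the first 15 were Gsta1, Gsta4 and Adh7, enzymes that conjugate or oxidise reactive compounds; Lgals4, a galectin of gut epithelium; Alpi, the intestinal alkaline phosphatase; Krt79; Evc2, of the primary cilium; and Reg3b, an antibacterial lectin. Their log2 differences ran from 2.70 for Reg3b to 4.61 for Gsta1. Gsta1, Lgals4 and Reg3b have near copies in the genome (Gsta2, Lgals6 and Reg3g), and how reads were divided among the copies is not known here.

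Armcx2 differed most toward Klf5KO. This armadillo-repeat gene, on the X chromosome at 134804142 to 134809221, stood at 0.427, 0.431 and 0.299 TPM in EgfrKO and 25.96, 24.1 and 25.2 in Klf5KO, with 1.67 ± 0.202 in WT. Igfbp1, a secreted binding protein of insulin-like growth factors, stood at 0.242, 0.865 and 0.309 and 8.24, 15.9 and 11.8 TPM, and Ntn1, the guidance cue netrin-1, at 0.522, 0.288 and 0.576 and 16.1, 10.3 and 15.2. For these genes every EgfrKO library was below 1 TPM and every Klf5KO library above 8. The log2 differences were -4.24 ± 0.11 for Armcx2, -3.12 ± 0.24 for Igfbp1 and -3.33 ± 0.18 for Ntn1, with adjusted p of 1.3e-09, 1.5e-06 and 1.3e-07.

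Tenascin-C (Tnc), a matrix glycoprotein of wounds and tumour stroma, stood at 9.85, 10.1 and 8.83 TPM in EgfrKO, 82.5, 60.8 and 73.2 in Klf5KO and 21.9, 19.3 and 21.2 in WT. The labels were ordered EgfrKO, WT, Klf5KO without overlap, and the difference was -2.78 ± 0.12 (adjusted p = 3.6e-08). Inhba, which codes for the activin A subunit, showed the same order, at 23.4, 21.4 and 20.7 TPM in EgfrKO, 134, 136 and 131 in Klf5KO and 76.7, 80.1 and 95.6 in WT, a difference of -2.56 ± 0.08. Stanniocalcin-1 (Stc1), a secreted glycoprotein hormone, stood at 11.7 ± 1.40 TPM in EgfrKO and 82.9 ± 11.6 in Klf5KO, follistatin-like 1 (Fstl1) at 8.65 ± 0.452 and 80.2 ± 17.2, and the endothelial and tumour proteoglycan Esm1 at 0.205 ± 0.157 and 7.21 ± 0.721. Ccbe1, Col12a1, Col8a1, Soga3, Meox1 and Dock8 completed the group with log2 differences of -2.58 for Dock8 to -2.86 for Col12a1. Hba-a2 also met the rule, but it shares reads with its copy Hba-a1 and no value is drawn from it.

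**Figure D2:**
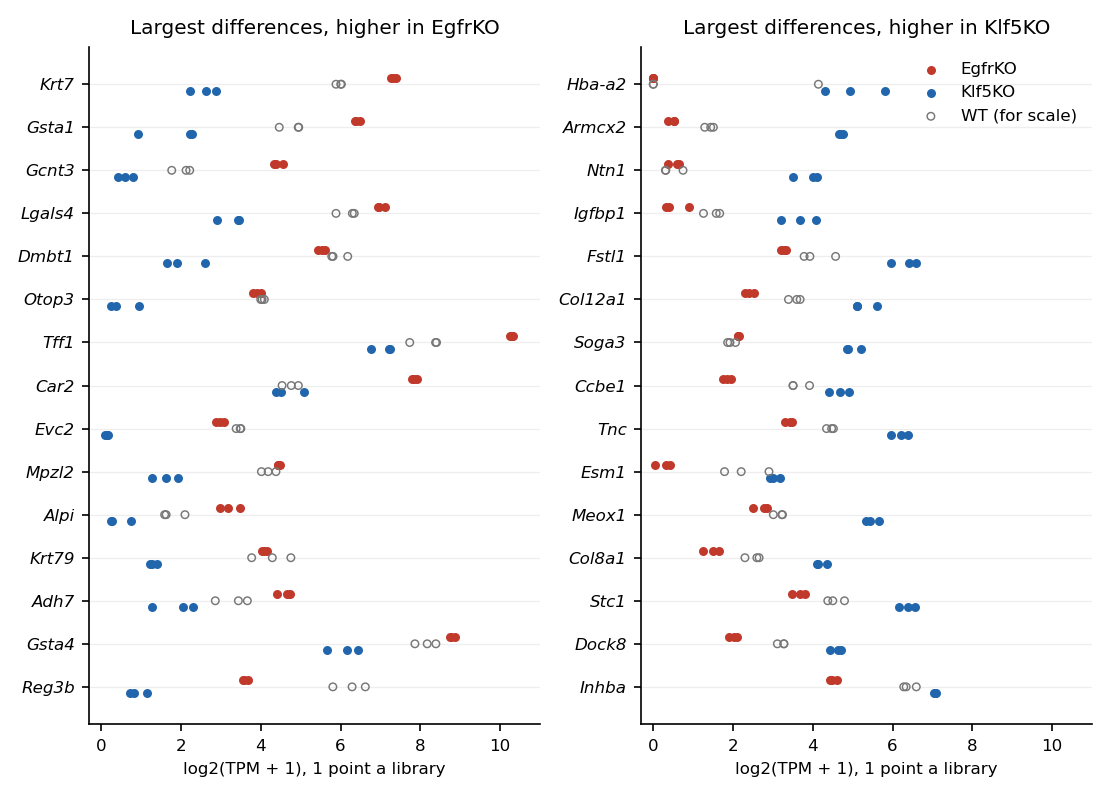
The 15 genes with the largest log2 difference in each direction, as log2(TPM + 1), 1 point a library, with EgfrKO in red, Klf5KO in blue and WT as open grey circles. The 3 EgfrKO and the 3 Klf5KO points of a row are apart because genes were chosen that way; Krt7 in EgfrKO lies above WT and in Klf5KO below it, and Tnc and Inhba show the opposite order.

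The sequences before the start sites of genes at both ends of the comparison are shown because the knockouts concern 2 routes to promoters: AP-1, which acts after ERK, and KLF factors. RefSeq promoter windows of GRCm38.p6, from 250 bases before to 50 after the start, were found for 10387 of the 13662 genes and searched on both strands for TGANTCA, the core that AP-1 binds, and for CCACCC, a KLF-type box. The 250 bases before the start are printed 5′ to 3′ on the strand of the gene, with a match to either motif in capitals. Krt7 is the first gene toward EgfrKO; Armcx2 and Igfbp1 stand for those toward Klf5KO.
Krt7, chr15:101412153-101412402, + strand: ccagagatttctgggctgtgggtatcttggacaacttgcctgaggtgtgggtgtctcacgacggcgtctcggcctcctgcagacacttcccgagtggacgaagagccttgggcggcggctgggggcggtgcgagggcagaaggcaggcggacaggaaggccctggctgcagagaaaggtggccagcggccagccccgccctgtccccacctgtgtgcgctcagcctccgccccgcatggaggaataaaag
Armcx2, chrX:134809222-134809471, − strand: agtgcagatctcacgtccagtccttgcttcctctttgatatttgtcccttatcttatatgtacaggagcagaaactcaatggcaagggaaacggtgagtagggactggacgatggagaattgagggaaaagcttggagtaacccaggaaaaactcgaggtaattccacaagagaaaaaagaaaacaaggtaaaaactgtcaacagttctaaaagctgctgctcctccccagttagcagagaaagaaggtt
Igfbp1, chr11:7197537-7197786, + strand: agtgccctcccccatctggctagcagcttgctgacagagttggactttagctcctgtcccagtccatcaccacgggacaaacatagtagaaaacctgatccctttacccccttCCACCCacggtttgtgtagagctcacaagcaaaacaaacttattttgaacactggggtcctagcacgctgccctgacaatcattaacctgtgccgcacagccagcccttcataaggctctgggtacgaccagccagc
Among these only the window of Igfbp1 holds a match, 1 CCACCC, which says only what letters these windows contain. TGANTCA stood in 7.34% of the windows of genes higher in EgfrKO on both scales, in 4.77% of those higher in Klf5KO and in 5.62% of all genes tested. CCACCC stood in 38.5% of the windows in each direction and in 36.7% of all. At a log2 difference of 1 or more, the shares were 8.37% and 7.52% for TGANTCA and 44.2% and 47.4% for CCACCC, toward EgfrKO and Klf5KO in turn. None of these shares was tested, and a match does not show that a factor binds.

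The keratins of simple and ductal epithelium were higher in EgfrKO. Of 7 tested, 6 were called higher in EgfrKO, all of them on both scales, and none in Klf5KO; the median log2 difference was 0.85 as deposited and 1.05 after scaling, against -0.16 and 0.01 for all genes. Krt19, the acidic keratin of ducts, stood at 1894, 1835 and 1789 TPM in EgfrKO, 714, 786 and 722 in Klf5KO and 998, 1081 and 1096 in WT. The EgfrKO libraries were thus above WT and the Klf5KO libraries below it, as for Krt7, with a difference of 1.31 ± 0.05 (adjusted p = 2e-08). Krt8 differed by 0.56 ± 0.06, and Krt20 and Krt23, keratins of gut and secretory epithelium, by 0.85 ± 0.09 and 1.08 ± 0.07. The call of Krt18, the partner of Krt8, was not kept under quantile normalization, where the difference was 0.09 against 0.36 as deposited.

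Junction genes did not move as 1 group. Of 19 tested, 8 were called higher in EgfrKO and 6 in Klf5KO (8 and 4 on both scales), with a median of 0.15 as deposited and 0.35 after scaling. The first median was 0.23 without Klf5KO replicate 1 and 0.08 without Klf5KO replicate 2. Toward EgfrKO, occludin (Ocln), a membrane protein of tight junctions, stood at 3.04, 2.66 and 3.56 TPM against 0.208, 0.299 and 0.101 in Klf5KO. Crb3, of the apical polarity complex, stood at 32.2, 29.4 and 31.5 against 16.4, 13.2 and 11.8. The desmosomal plakophilin Pkp3 and the tight junction scaffold Tjp3 differed by 1.003 ± 0.12 and 1.44 ± 0.12. Toward Klf5KO, the pore-forming claudin Cldn2 stood at 274, 264 and 256 TPM in EgfrKO and 454, 417 and 453 in Klf5KO, a difference of -0.73 ± 0.05, and the scaffold Tjp1 and plakoglobin (Jup) differed by -0.47 and -0.36. E-cadherin (Cdh1) did not pass as deposited (0.15 ± 0.09, adjusted p = 0.193), and passed after scaling (0.35, adjusted p = 0.00175) and, as deposited, without Klf5KO replicate 1 (0.26).

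Transcription and splicing factors of the epithelial state followed the keratins in part. Of 6 tested, 3 were higher in EgfrKO on both scales and none in Klf5KO (medians 0.39 and 0.58). Elf3, an ETS factor of mucosal epithelia, stood at 68.3, 63.2 and 60.9 TPM in EgfrKO, 15.3, 14.1 and 11.6 in Klf5KO and 43.4, 51.8 and 42.7 in WT. The EgfrKO libraries were all above those of WT and the Klf5KO libraries all below, and the difference was 2.16 ± 0.10 (adjusted p = 4.1e-08). Esrp2, a splicing factor of epithelial isoforms, stood at 29.1 ± 1.82 TPM against 17.6 ± 2.28, a difference of 0.70 ± 0.10.

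Gastric and classical-subtype markers held the highest median toward EgfrKO of the pathway lists, as deposited and after scaling. The classical subtype of pancreatic cancer is defined by expression of such epithelial genes. Of 20 tested, 16 were higher in EgfrKO on both scales and 1 in Klf5KO, with a median of 1.09 as deposited and 1.16 after scaling. Cathepsin E (Ctse), an aspartic protease of the stomach lining, stood at 421, 433 and 420.0 TPM in EgfrKO, 123, 131 and 77.5 in Klf5KO and 297, 351 and 292 in WT. The annexin Anxa10 stood at 49.1, 48.4 and 40.8 TPM in EgfrKO and 12.7, 9.93 and 9.38 in Klf5KO, and Gkn2, a gastrokine, at 6.03, 5.62 and 6.17 and 0.153, 0.125 and 0. In each of them the libraries of the 2 labels were apart, and the differences were 1.97 ± 0.15, 2.02 ± 0.14 and 2.67 ± 0.12. The exception was the mucin Muc5b, at 2.16 ± 0.203 TPM in EgfrKO and 5.74 ± 2.35 in Klf5KO (-1.04 ± 0.20).

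The lineage factors of pancreas and gut were divided. Of 17 tested, 5 were higher in EgfrKO and 4 in Klf5KO on both scales, with medians of -0.09 and 0.07. The intestinal factor Cdx2 stood at 5.73 ± 0.999 TPM in EgfrKO against 2.07 ± 0.289 in Klf5KO (1.13 ± 0.15), and Gata4 at 37.5 ± 1.07 against 28.2 ± 2.14 (0.40 ± 0.06). Spdef, a factor of goblet cells, was below 1 TPM in both labels, at 0.701 ± 0.0942 and 0.0134 ± 0.0232. Hnf4a, a nuclear receptor of the classical subtype, went the other way at 74.8 ± 2.44 TPM in EgfrKO and 117 ± 9.93 in Klf5KO (-0.63 ± 0.07), and so did the duct factor Sox9, at 70.00 ± 3.04 and 102 ± 2.60 (-0.54 ± 0.07), and Foxa3 (-0.71 ± 0.12).

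Mucosal defence genes and S100 proteins leaned toward EgfrKO. Of 12 mucosal genes tested, 6 were higher in EgfrKO and 2 in Klf5KO on both scales (medians 0.47 and 0.55), and the first median was 0.28 without Klf5KO replicate 1 and 0.86 without Klf5KO replicate 2. Wfdc2, a secreted protease inhibitor, stood at 843, 821 and 805 TPM in EgfrKO and 343, 322 and 308 in Klf5KO, and the EgfrKO values were close to the WT mean of 852 ± 46.1. Reg1 and Reg3b, regenerating-family lectins, averaged 10.4 ± 2.52 and 11.1 ± 0.53 TPM in EgfrKO and 1.39 ± 0.853 and 0.875 ± 0.301 in Klf5KO, both below the WT means of 25.4 ± 8.74 and 76.4 ± 21.2. Ceruloplasmin (Cp), the copper-binding ferroxidase, and Nos2 were the exceptions, with differences of -0.86 ± 0.07 and -0.56 ± 0.11. Of 13 S100 genes, 8 were higher in EgfrKO and 2 in Klf5KO on both scales (medians 0.65 and 0.85); S100a6 averaged 5604 ± 124 TPM against 2852 ± 405 and S100a11 4760.4 ± 136 against 3042 ± 269. S100g, a calcium buffer of gut epithelium, averaged 8.71 ± 1.15 TPM against 0.982 ± 0.357. S100b and S100z were the 2 that were higher in Klf5KO, and S100z was listed at 0 in every EgfrKO library.

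Squamous and basal-like genes, the markers of the other main subtype, could be compared only in part. Of 21 on the list, 10 were tested. Those not tested included Krt5, Krt6a, Krt6b, Krt15, Krt17, Trp63, Col17a1, Ly6d and Dsg3. The 10 tested did not run opposite to the classical genes: 6 were higher in EgfrKO on both scales and 1 in Klf5KO (medians 0.44 and 0.50). Lamb3, a chain of the basement membrane laminin of epithelia, stood at 16.7, 16.9 and 15.8 TPM in EgfrKO and 4.51, 3.33 and 3.999 in Klf5KO. The difference was 1.82 ± 0.19, and every library of both labels was below the WT mean of 25.3 ± 7.99. The keratins Krt14 and Krt16 differed by 1.06 ± 0.06 and 1.02 ± 0.22. Itgb4, the hemidesmosome integrin, was the exception at -0.32 ± 0.06.

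Extracellular matrix and mesenchymal genes were higher in Klf5KO, and so were markers of fibroblasts. All 17 collagen genes tested were called higher in Klf5KO, 15 of them on both scales, with a median of -1.17 as deposited and -0.99 after scaling. The fibrillar collagen Col1a1 stood at 47.98, 45.4 and 43.03 TPM in EgfrKO, 239, 112 and 139 in Klf5KO and 41.6, 28.7 and 17.5 in WT. Col1a2, its partner in collagen I, stood at 31.2, 31.4 and 30.9 TPM in EgfrKO, 178, 81.8 and 96.7 in Klf5KO and 29.1, 19.00 and 9.99 in WT. In both genes Klf5KO replicate 1 was the highest library, and the differences were -1.75 ± 0.30 and -1.81 ± 0.34. Col12a1, which decorates fibrils, stood at 4.77, 4.31 and 3.93 TPM in EgfrKO and 47.5, 33.5 and 33.7 in Klf5KO, and the basement membrane collagen Col4a1 at 107, 98.05 and 97.9 and 216, 177 and 189. Col8a1 and Col16a1 differed by -2.74 ± 0.13 and -2.01 ± 0.09.

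Of the 13 fibroblast markers tested, 0 were higher in EgfrKO and 7 in Klf5KO on both scales, the same 3 fibrillar collagens among them, with a median of -0.67 as deposited and -0.48 after scaling. Their summed TPM was 133 to 146 in EgfrKO, 315 to 644 in Klf5KO and 62.1 to 152 in WT. That sum includes the same fibrillar collagens, so it is not independent of the collagen list. Of the 14 markers none was listed at 0 in all 6 libraries, and Fap was below the filter. The part of fibroblasts in the matrix difference was not tested.

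Mesenchymal markers and the transcription factors of epithelial-mesenchymal transition, which repress E-cadherin and other epithelial genes, ran the same way. Of 14 mesenchymal markers, 12 were called higher in Klf5KO, 10 on both scales, and none in EgfrKO on both scales (medians -0.82 and -0.62). Fibronectin (Fn1), an adhesive matrix glycoprotein, stood at 415, 408 and 394 TPM in EgfrKO, 1370.5, 1386 and 1251 in Klf5KO and 934, 986 and 1174 in WT. Every EgfrKO library was below every WT library and every Klf5KO library above, and the difference was -1.72 ± 0.09 (adjusted p = 7.3e-08). Thrombospondin-1 (Thbs1) stood at 18.7, 19.02 and 18.9 TPM in EgfrKO and 119, 122 and 96.5 in Klf5KO, N-cadherin (Cdh2) at 74.2, 70.3 and 69.4 and 139, 124 and 127, and the receptor kinase Axl at 142, 134 and 126 and 251, 223 and 222. These 3 differed by -2.50 ± 0.10, -0.86 ± 0.07 and -0.79 ± 0.07.

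Of 7 such transcription factors, 6 were called higher in Klf5KO and 5 on both scales (medians -0.83 and -0.63). Snai2 stood at 1.78, 1.80 and 1.26 TPM in EgfrKO, 5.20, 5.32 and 7.63 in Klf5KO and 2.23, 1.81 and 1.54 in WT, so that EgfrKO was near WT and Klf5KO above both. Snai1 averaged 1.34 ± 0.544 TPM in EgfrKO and 4.79 ± 1.30 in Klf5KO, but 4.33 ± 0.636 in WT. Zeb1, Zeb2 and Prrx1 differed by -0.83 ± 0.09, -0.80 ± 0.10 and -0.83 ± 0.11.

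**Figure D3:**
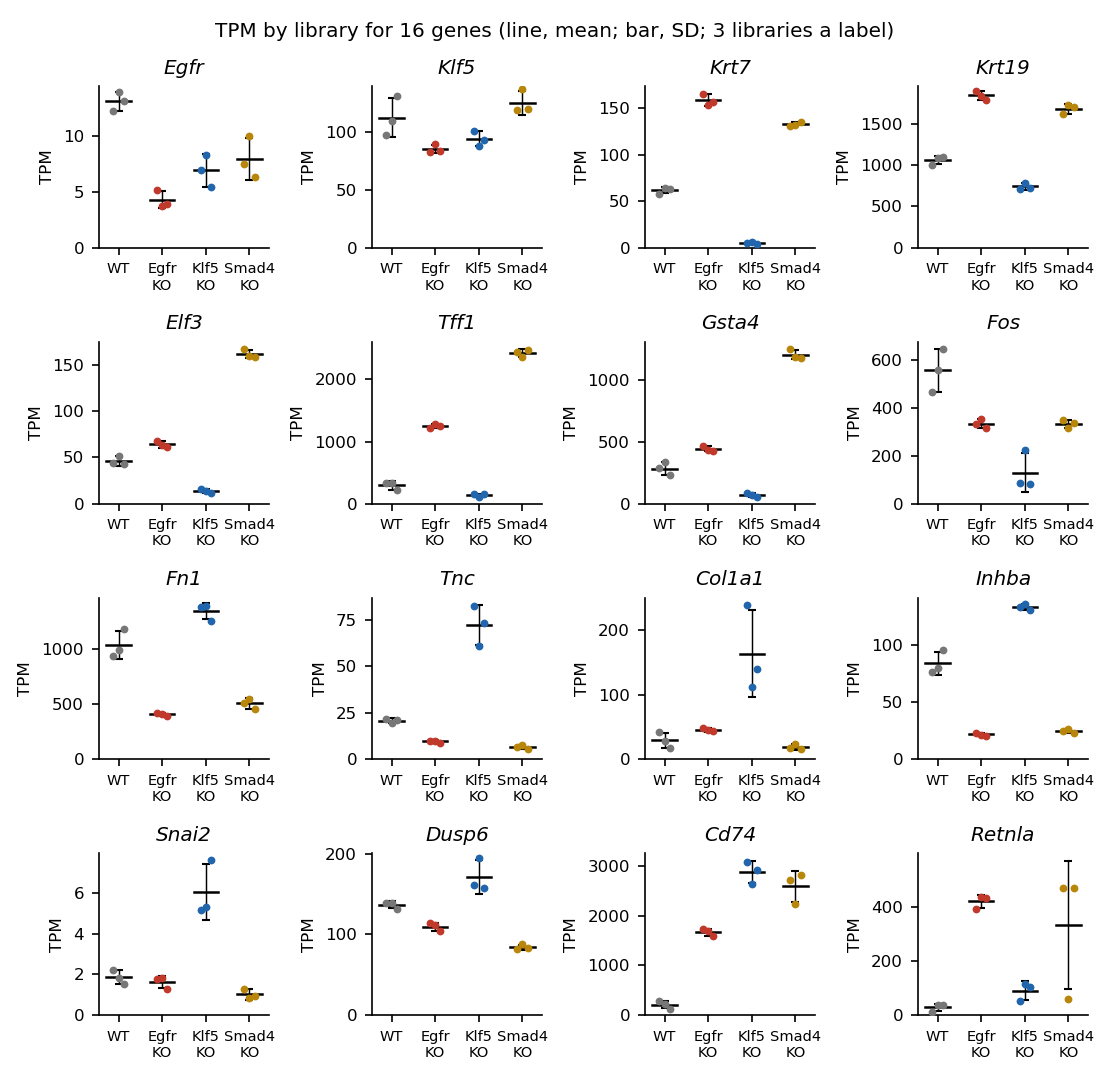
TPM of 16 genes in each library of the 4 labels, with a line at the mean and a bar for the SD of 3 libraries; every vertical axis starts at 0. Krt7, Krt19, Elf3, Tff1 and Gsta4 are lowest in Klf5KO, and Fn1, Tnc, Col1a1, Inhba, Snai2 and Dusp6 highest there, while Klf5 overlaps between EgfrKO and Klf5KO.

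Receptors for the matrix went with it. Of 15 integrin and laminin genes outside the squamous list, 10 were called higher in Klf5KO, 9 on both scales, and 2 in EgfrKO (medians -0.59 and -0.39). The collagen receptor chain Itga1 stood at 16.5, 15.02 and 15.8 TPM in EgfrKO and 53.8, 42.7 and 43.5 in Klf5KO, the fibronectin receptor chain Itga5 at 57.8, 56.7 and 52.02 and 113, 117 and 109.7, and their shared partner Itgb1 at 296, 272 and 275 and 516, 473 and 498. No library of one label overlapped the other in these 3 genes, and the differences were -1.50 ± 0.11, -1.02 ± 0.06 and -0.81 ± 0.07. The laminin chains Lama4 and Lamb1 differed by -1.57 ± 0.12 and -1.24 ± 0.08. The 2 called toward EgfrKO, Itgb3 and Lamb2, lost their calls when single EgfrKO or Klf5KO libraries were left out, with differences as low as 0.21 and 0.17.

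Matrix proteases and their inhibitors leaned toward Klf5KO. Of 18 tested, 10 were called there, 7 on both scales, and 2 in EgfrKO (medians -0.45 and -0.26). The stromelysins Mmp3 and Mmp10 averaged 8.001 ± 0.452 and 4.33 ± 1.26 TPM in EgfrKO and 25.2 ± 3.97 and 13.3 ± 2.34 in Klf5KO, both below WT at 41.9 ± 4.82 and 18.7 ± 4.57. The inhibitors Timp1 and Timp2 differed by -0.54 ± 0.07 and -0.42 ± 0.05. Plaur, the urokinase receptor, was higher in EgfrKO, by 0.35 ± 0.07.

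Genes of TGF-beta signalling, in which ligands of the TGF-beta and activin type act through receptor kinases and Smad proteins, were higher in Klf5KO from ligand to Smad. Of 16 ligands, receptors and Smads, 12 were called there, 11 on both scales, and none in EgfrKO on both (medians -0.49 and -0.29). Besides the activin subunit Inhba, the ligand Tgfb1 stood at 122, 119 and 118 TPM in EgfrKO and 163, 172 and 185 in Klf5KO, the receptor Tgfbr1 at 33.2, 31.5 and 30.1 and 71.00, 57.4 and 60.5, and Smad3 at 72.2, 68.1 and 67.01 and 111, 102 and 101.1. The values were apart in each, and the differences were -0.53 ± 0.05, -0.97 ± 0.10 and -0.59 ± 0.06.

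Usual target genes of the pathway leaned toward Klf5KO. Of 14 tested, 8 were higher in Klf5KO and 2 in EgfrKO on both scales (medians -0.44 and -0.24). The largest was Thbs1, given above. Ltbp2, a latent TGF-beta binding protein, averaged 3.46 ± 0.505 TPM in EgfrKO against 8.13 ± 0.834 in Klf5KO, and Ldlrad4 and the repressor Ski differed by -0.73 ± 0.07 and -0.56 ± 0.06. Bhlhe40, a target of several pathways, was higher in EgfrKO, by 0.55 ± 0.09.

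In the BMP branch Smad1 and Smad5 went apart from Id1 and Id2. Of 12 tested, 8 were higher in Klf5KO and 2 in EgfrKO on both scales (medians -0.61 and -0.41). Smad1 and Smad5, which carry the BMP signal, stood at 33.1 ± 1.98 and 17.8 ± 1.25 TPM in EgfrKO and 49.7 ± 3.38 and 35.96 ± 3.996 in Klf5KO, differences of -0.57 ± 0.07 and -0.97 ± 0.09. Id1, a direct target of those Smads, stood at 79.3, 72.3 and 67.9 TPM in EgfrKO, 30.1, 33.3 and 31.6 in Klf5KO and 63.9, 61.3 and 63.2 in WT. Its difference had the other sign, 1.18 ± 0.06 (adjusted p = 1.2e-07). Id2 was also called toward EgfrKO (0.34 ± 0.10), and that call was lost without Klf5KO replicate 1 or 3, at 0.25 and 0.27. Id3 was tested too and was not called toward EgfrKO as deposited.

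Wnt genes, Notch genes and YAP targets were divided or leaned toward Klf5KO. Of 12 Wnt genes, 7 were higher in Klf5KO and 3 in EgfrKO on both scales (medians -0.50 and -0.32). The ligand Wnt7b averaged 15.04 ± 0.93 TPM in EgfrKO and 32.2 ± 3.81 in Klf5KO, and Wnt10a 28.5 ± 2.14 and 58.1 ± 8.17. Wnt7a went the other way, at 2.06 ± 0.473 against 0.146 ± 0.128. In the Notch pathway, where a ligand on 1 cell activates a receptor on the next, 5 of 11 genes were higher in EgfrKO and 4 in Klf5KO on both scales (medians -0.13 and 0.04). The count of 5 was 3 without EgfrKO replicate 1 or 3 or Klf5KO replicate 2 or 3, and the median ran from -0.22 without EgfrKO replicate 1 to -0.05 without EgfrKO replicate 2. The receptors Notch1 and Notch2 were higher in Klf5KO, by -0.72 ± 0.08 and -0.79 ± 0.10 as EgfrKO minus Klf5KO, and the ligand Jag2 and the target Hes1 higher in EgfrKO, by 0.96 ± 0.10 and 0.41 ± 0.06. Of 12 targets of YAP, a coactivator that responds to cell shape and density, 7 were higher in Klf5KO and 1 in EgfrKO on both scales (medians -0.42 and -0.22). Ptpn14 and Arhgef17 averaged 2.54 ± 0.188 and 6.50 ± 0.187 TPM in EgfrKO and 11.8 ± 2.08 and 28.8 ± 2.83 in Klf5KO, and tissue factor (F3) was the exception at 105 ± 9.10 against 59.03 ± 1.96 (0.82 ± 0.09).

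The genes of ERBB signalling leaned toward Klf5KO. Of 11 ERBB genes, 7 were called there, 5 on both scales, and 1 in EgfrKO (medians -0.36 and -0.16). Egfr itself, the gene targeted under the EgfrKO label, is counted among the 7 and the 5. Over all genes 25.6% were higher in Klf5KO on both scales. The EGFR ligand Hbegf stood at 139, 138 and 133 TPM in EgfrKO and 210.3, 236 and 197 in Klf5KO. Tgfa, another ligand, stood at 27.9, 26.9 and 24.4 TPM in EgfrKO and 43.1, 39.3 and 38.7 in Klf5KO. Both differed without overlap, by -0.64 ± 0.07 and -0.60 ± 0.07; Hbegf was below its WT mean of 273 ± 17.4 in both labels, and Tgfa in EgfrKO was near the WT mean of 28.1 ± 1.08. Errfi1, an inhibitor that ERBB signalling itself induces, stood at 96.6, 95.7 and 90.1 TPM in EgfrKO and 188, 174 and 177 in Klf5KO (-0.93 ± 0.05). The exception was the receptor Erbb3, at 9.37, 9.45 and 8.71 TPM in EgfrKO, 3.39, 3.61 and 2.44 in Klf5KO and 12.8, 15.4 and 11.2 in WT, a difference of 1.31 ± 0.13 (adjusted p = 1.3e-05).

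Of 21 ERK output genes, 12 were called higher in Klf5KO, 7 on both scales, and 2 in EgfrKO (medians -0.28 and -0.10). On the scaled values 5 were higher in EgfrKO and 7 in Klf5KO, so the list was divided there, and its share toward Klf5KO on both scales was not far from the 25.6% of all genes. Dusp6, the phosphatase that inactivates ERK, stood at 114, 111 and 104 TPM in EgfrKO, 161, 195 and 157 in Klf5KO and 139, 139 and 132 in WT. The EgfrKO values were below WT and the Klf5KO values above, and the difference was -0.63 ± 0.07 (adjusted p = 3.5e-05). Spred1, an inhibitor upstream of RAF, averaged 25.1 ± 0.863 TPM against 47.1 ± 4.46, and the PEA3 factors Etv1 and Etv4 differed by -1.21 ± 0.11 and -0.55 ± 0.05. Phlda1 and Ier3 were the exceptions. Phlda1 stood at 158, 165 and 159.8 TPM in EgfrKO and 85.7, 108 and 91.2 in Klf5KO (0.76 ± 0.08), and Ier3 lost its call when Klf5KO replicate 1 or 3 or EgfrKO replicate 2 was left out, with differences from 0.39.

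Immediate-early genes, which cells switch on within minutes of a stimulus, leaned toward EgfrKO. Of 14 tested, 7 were higher in EgfrKO and 1 in Klf5KO on both scales (medians 0.26 and 0.46). Without Klf5KO replicate 2, 10 were called higher in EgfrKO as deposited and the median was 0.47. Fos, a subunit of AP-1, stood at 333, 353 and 316 TPM in EgfrKO, 84.4, 222 and 81.4 in Klf5KO and 465, 559 and 644 in WT. Klf5KO replicate 2 was well above the other 2 of its label but below every EgfrKO library, and the difference was 1.53 ± 0.29 (adjusted p = 0.00098). Atf3, a stress-induced factor that pairs with AP-1 proteins, averaged 66.1 ± 4.96 TPM against 22.1 ± 7.43, Nr4a1 19.5 ± 1.57 against 10.3 ± 1.43, and the RNA decay factor Zfp36 113 ± 6.70 against 66.7 ± 15.9. Egr2 was the exception, at 5.57 ± 0.327 against 11.5 ± 3.15.

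The Krüppel-like factors gave few calls. Of 11 tested, Klf5 among them, 2 were higher in EgfrKO and 1 in Klf5KO on both scales (medians -0.11 and 0.09). Over all genes the shares were 14.7% and 25.6%, so the family did not stand out. Klf4, the family member of differentiated gut epithelium, stood at 90.6, 93.1 and 84.5 TPM in EgfrKO, 58.97, 66.6 and 49.4 in Klf5KO and 111, 128 and 163 in WT. The difference was 0.62 ± 0.13 (adjusted p = 0.00164), and both labels were below the WT mean. Klf11 averaged 10.5 ± 1.03 TPM against 8.17 ± 0.741, and Klf13 31.01 ± 0.191 against 54.3 ± 9.32, differences of 0.33 ± 0.09 and -0.77 ± 0.10.

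Cell cycle genes gave no single direction, and the split depended on the scale. Of 24 replication and mitosis genes, 2 were called higher in EgfrKO and 11 in Klf5KO as deposited (median -0.17), and 7 and 3 after scaling (median 0.03). As deposited, the counts were 1 and 7 without EgfrKO replicate 3, and the median was -0.08 without Klf5KO replicate 1. Mki67, the proliferation antigen, was higher in Klf5KO on both scales, at 29.7, 27.9 and 26.99 TPM in EgfrKO and 54.6, 37.7 and 44.6 in Klf5KO, and so were the spindle checkpoint kinases Bub1 and Bub1b (-0.51 ± 0.11 and -0.49 ± 0.09). Rrm2, which makes deoxynucleotides, was higher in EgfrKO, at 121, 121 and 117 and 90.2, 73.4 and 76.3 (0.58 ± 0.08). Of 17 genes of the Myc network and the G1 phase, 3 were higher in EgfrKO and 3 in Klf5KO on both scales (medians -0.13 and -0.04), and the count toward EgfrKO was 5 without Klf5KO replicate 2. Mycn averaged 10.6 ± 0.343 TPM against 3.55 ± 0.679, and the cell cycle inhibitor Cdkn1a 29.5 ± 2.48 against 16.8 ± 2.99, while Cdk6 and Ccnd3 were higher in Klf5KO, by -0.84 ± 0.12 and -0.46 ± 0.06 as EgfrKO minus Klf5KO.

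Antigen presentation of class II was higher in Klf5KO, with calls that rested on single libraries. Class II molecules show peptides to CD4 T cells and are switched on by the coactivator Ciita. Of 8 genes tested, 7 were called higher in Klf5KO, 3 on both scales, and none in EgfrKO (medians -0.69 and -0.49). Cd74, the invariant chain, stood at 1728, 1686 and 1593 TPM in EgfrKO, 3087, 2643 and 2921 in Klf5KO and 279.7, 223 and 127 in WT. Both knockouts were far above WT and apart from each other, by -0.79 ± 0.22 (adjusted p = 0.00876). Ciita stood at 9.84, 8.56 and 8.61 TPM in EgfrKO and 26.2, 16.2 and 19.95 in Klf5KO, a difference of -1.10 ± 0.20. The count of 7 fell to between 2 and 4 without EgfrKO replicate 1, 2 or 3 or Klf5KO replicate 1 or 3, and was 2 without Klf5KO replicate 1.

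Beside these genes the markers of cells that carry class II by nature were uneven. Of the 14 macrophage markers, limma called none in either direction as deposited and 1 had an unadjusted p under 0.05 (medians 0.09 and 0.29), Cd53 alone of 8 general leukocyte markers was higher in Klf5KO, and of 4 dendritic cell markers tested Itgax was higher in Klf5KO on both scales and Cd209a in EgfrKO. The most abundant macrophage markers, Apoe and Lyz2, averaged 1098 ± 6.68 and 433 ± 17.7 TPM in EgfrKO and 1132 ± 289 and 675 ± 171 in Klf5KO, and neither passed (adjusted p = 0.989 and 0.3). The sign of Apoe turned after scaling (0.19), and Lyz2 passed toward Klf5KO when the 6 libraries were fitted alone. The part of such cells in the class II difference was not tested.

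Class I genes and their peptide loading showed few calls. Of 18 tested, 5 were called higher in Klf5KO, 2 on both scales, and none in EgfrKO (medians -0.23 and -0.02). Those called on both scales were Nlrc5, the coactivator of class I genes, at 25.1 ± 3.04 TPM in EgfrKO and 44.3 ± 5.47 in Klf5KO, and the peptide trimming enzyme Erap1, at 33.7 ± 1.90 and 56.01 ± 9.61. Without WT replicate 1 or 3, which enter only through the shared spread, 8 and 10 class I genes were called higher in Klf5KO.

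The 2 lists of interferon-stimulated genes leaned in different directions by their medians. Of 17 GTPases that act against intracellular pathogens and respond mainly to interferon gamma, 11 were called higher in Klf5KO, 4 on both scales, and none in EgfrKO (medians -0.55 and -0.35). Over all genes 40.5% were called higher in Klf5KO as deposited and 25.6% on both scales, so the share on both scales was not above that of all genes. Gbp5 stood at 23.3, 18.99 and 21.1 TPM in EgfrKO and 46.1, 32.4 and 32.1 in Klf5KO, Irgm2 at 53.6, 49.2 and 48.8 and 88.6, 69.2 and 75.1, and both were above WT (2.77 ± 0.837 and 11.96 ± 3.41) under either label. Their differences were -0.76 ± 0.17 and -0.60 ± 0.16, and 6 of the GTPases were called without Klf5KO replicate 1. Of 26 antiviral genes, of which many respond to type I interferon, 8 were higher in EgfrKO and 1 in Klf5KO on both scales (medians 0.08 and 0.27). Irf7, a factor that amplifies the type I response, stood at 46.3, 48.1 and 45.3 TPM in EgfrKO and 23.03, 28.1 and 18.6 in Klf5KO, and the antiviral enzyme Oas2 at 16.1, 16.1 and 14.1 and 3.77, 5.53 and 3.54, while its relative Oasl1 averaged 43.03 ± 2.99 and 20.5 ± 2.84. These 3 differed by 0.99 ± 0.15, 1.65 ± 0.20 and 1.04 ± 0.11. The count of 8 was 5 without any single EgfrKO library or Klf5KO replicate 1, and 3 without Klf5KO replicate 3. Parp14 was higher in Klf5KO on both scales (-0.56 ± 0.13).

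Cytokines that act on myeloid cells were divided. Of 19 tested, 7 were higher in EgfrKO and 5 in Klf5KO on both scales (medians -0.07 and 0.12). Csf1, the growth factor of macrophages, stood at 7.77, 6.87 and 7.51 TPM in EgfrKO, 16.5, 17.8 and 18.5 in Klf5KO and 6.89, 6.98 and 6.97 in WT. Tslp, an epithelial cytokine, stood at 0.35, 0.661 and 0.898 TPM in EgfrKO and 3.37, 5.53 and 2.80 in Klf5KO, with a WT mean of 0.589 ± 0.475. In both genes EgfrKO was near WT and Klf5KO above, with differences of -1.15 ± 0.09 and -1.56 ± 0.27. Ptgs2, the inducible cyclooxygenase, averaged 12.1 ± 0.69 TPM in EgfrKO and 24.5 ± 5.13 in Klf5KO, both below the WT mean of 41.1 ± 11.4. The 7 genes toward EgfrKO included the neutrophil attractants Cxcl1 and Cxcl2 and the growth factor Csf2, named here after their values were seen: 31.3 ± 2.24, 24.7 ± 3.82 and 6.33 ± 0.329 TPM in EgfrKO, 17.2 ± 8.62, 13.1 ± 3.49 and 2.77 ± 1.01 in Klf5KO, and far more in WT (121 ± 40.96, 102 ± 30.2 and 44.5 ± 16.3). That count was 4 without EgfrKO replicate 2 or Klf5KO replicate 1, and the call of Cxcl1 was lost without EgfrKO replicate 2 or Klf5KO replicate 1 or 3, with a lowest difference of 0.71. Of 5 neutrophil markers tested, limma called none in either direction, and 0 had an unadjusted p under 0.05.

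Other immune genes were called in both directions. Over all genes 14.7% were higher in EgfrKO and 25.6% in Klf5KO on both scales. Of 8 chemokines that attract T cells, Cxcl16 was higher in Klf5KO on both scales, at 59.3 ± 4.55 TPM in EgfrKO and 93.4 ± 2.39 in Klf5KO. Cxcl9 averaged 105 ± 5.70 and 166 ± 36.1, and Cxcl10 115 ± 7.37 and 151 ± 14.5, and neither kept its call after scaling (adjusted p = 0.0908 and 0.291). Cxcl9 also lost it without EgfrKO replicate 2 or 3 or Klf5KO replicate 1, and Cxcl10 without any 1 of these 6 libraries except Klf5KO replicate 2, with lowest differences of -0.47 and -0.32. Of 10 checkpoint genes, Lgals9 and Nectin2 were higher in EgfrKO on both scales (0.32 ± 0.09 and 0.32 ± 0.09) and Cd276 and Cd80 in Klf5KO, of which Cd276 averaged 56.3 ± 2.84 against 88.4 ± 11.1 TPM and Cd80 lost its call without EgfrKO replicate 3 or Klf5KO replicate 1 (differences of -0.51 and -0.51). Of 13 genes of the NF-kappaB pathway, 7 were called higher in Klf5KO as deposited and 1 in EgfrKO. On both scales 3 were higher in Klf5KO, the subunits Nfkb2 and Rela among them (-0.59 ± 0.05 and -0.45 ± 0.05), and 1 in EgfrKO, Nfkbiz (0.58 ± 0.15). T and NK cell markers were low under both labels, with sums of 14.2 to 18.9 TPM in EgfrKO and 17.8 to 26.1 in Klf5KO.

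Of 8 markers of alternatively activated macrophages, a state that interleukin-4 induces, 4 were higher in EgfrKO on both scales and none in Klf5KO (medians 0.996 and 1.19): Retnla, Cd209d, Mgl2 and Clec10a. Retnla, a secreted resistin-like protein, stood at 392.4, 435 and 431 TPM in EgfrKO, 51.1, 115 and 104 in Klf5KO and 12.5, 36.7 and 35.6 in WT. The call was lost without Klf5KO replicate 1, where the difference was 1.93 against 2.29 ± 0.69 with all libraries (adjusted p 0.0616 against 0.0149), and without that library the count of 4 fell to 1 and the median to 0.66. Arg1, another marker of the state, averaged 88.5 ± 5.35 TPM in EgfrKO and 137 ± 40.5 in Klf5KO and did not pass (adjusted p = 0.13); without Klf5KO replicate 1 it was called toward Klf5KO.

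The unfolded protein response and the Atf4 response leaned in opposite directions. Of 16 genes of the unfolded protein response, which raises chaperone capacity in the endoplasmic reticulum, 14 were called higher in Klf5KO, 12 on both scales, and none in EgfrKO on both (medians -0.51 and -0.30). The chaperone Hspa5 stood at 403, 378 and 375 TPM in EgfrKO, 585, 591 and 598 in Klf5KO and 512, 509 and 539 in WT, and Hsp90b1, Calr and Pdia4 averaged 341 ± 21.3, 615 ± 30.4 and 157 ± 9.25 against 521 ± 15.4, 881 ± 19.3 and 280.4 ± 14.04. Their differences were -0.62 ± 0.04, -0.61 ± 0.05, -0.52 ± 0.04 and -0.83 ± 0.06. Of 15 genes of the Atf4 response to amino acid shortage, 10 were instead higher in EgfrKO and 1 in Klf5KO on both scales (medians 0.32 and 0.52). Asparagine synthetase (Asns) stood at 88.8, 81.7 and 80.6 TPM in EgfrKO, 40.6, 31.02 and 42.6 in Klf5KO and 34.9, 27.4 and 27.8 in WT, a difference of 1.13 ± 0.12 (adjusted p = 1.3e-05), and Klf5KO was near WT. Vldlr was the exception (-0.61 ± 0.12).

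Heat shock genes were mostly higher in Klf5KO, 7 of 12 on both scales against 1 in EgfrKO (medians -0.41 and -0.21). The chaperone Hsph1 averaged 35.7 ± 2.43 TPM in EgfrKO and 86.9 ± 1.72 in Klf5KO, and the exception was the mitochondrial Hspe1 (0.33 ± 0.08). Of 21 genes of oxidant defence and detoxification, 9 were higher in EgfrKO and 2 in Klf5KO on both scales (medians 0.20 and 0.40). The glutathione transferase Gsta4 stood at 467, 435 and 429 TPM in EgfrKO, 85.2, 69.9 and 49.6 in Klf5KO and 287, 334 and 232 in WT, and Aldh1a3, Aldh3a1 and Cbr3 differed by 1.39 ± 0.08, 1.31 ± 0.11 and 0.996 ± 0.08. The cystine carrier Slc7a11 and thioredoxin reductase (Txnrd1), both textbook Nrf2 targets, were the exceptions at -0.996 ± 0.12 and -0.46 ± 0.07.

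Genes induced by hypoxia leaned toward EgfrKO, 8 of 20 on both scales against 1 in Klf5KO (medians 0.18 and 0.38). The first median was 0.37 without Klf5KO replicate 2 and 0.12 without Klf5KO replicate 1. The vasodilator peptide Adm stood at 23.97, 21.6 and 22.7 TPM in EgfrKO and 5.78, 17.1 and 7.79 in Klf5KO, and Egln3, Ero1l and Higd1a differed by 0.73 ± 0.16, 0.60 ± 0.12 and 0.64 ± 0.12. The prolyl hydroxylase of collagen P4ha1 was the exception, at 48.1 ± 2.23 against 69.6 ± 11.4 TPM. Both labels were below WT in Adm, Ero1l and Higd1a, which averaged 53.1 ± 4.27, 155 ± 20.4 and 69.7 ± 7.64 there. Glycolysis enzymes showed no direction that held across scales: 4 of 16 were called higher in EgfrKO and 4 in Klf5KO as deposited, 10 and 0 on the scaled values, and 4 and 7 when quantile normalization was used. Without EgfrKO replicate 1 or Klf5KO replicate 1, 2 were called higher in EgfrKO as deposited.

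Of the genes of lipid synthesis, those of sterols leaned toward EgfrKO and those of fatty acids gave no single direction. Of 20 cholesterol genes, 11 were higher in EgfrKO and 1 in Klf5KO on both scales (medians 0.26 and 0.45). Fdps, which makes farnesyl diphosphate, stood at 270.4, 251 and 258 TPM in EgfrKO and 156, 143 and 156 in Klf5KO, and the kinase Pmvk, a few steps before it, at 34.97, 37.6 and 35.5 and 18.2, 15.01 and 18.1. Neither gene overlapped between labels, and the differences were 0.77 ± 0.07 and 1.04 ± 0.12. The count of 11 was 7 without EgfrKO replicate 2 or Klf5KO replicate 2, and the median was 0.16 without the latter. Of 13 fatty acid genes, 3 were higher in EgfrKO and 3 in Klf5KO on both scales. The medians, -0.18 and 0.02, were close to the -0.16 and 0.01 of all genes. Acly, which supplies acetyl-CoA, differed by -0.48 ± 0.06 and the malic enzyme Me1 by 0.40 ± 0.07.

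Abundant housekeeping genes of translation and respiration were higher in EgfrKO. Of 78 cytosolic ribosomal protein genes, 73 were called higher in EgfrKO, 73 on both scales, and none in Klf5KO (medians 0.52 and 0.73). Rps18 and Rpl35 averaged 6148 ± 66.1 and 3593 ± 130.4 TPM in EgfrKO and 3666 ± 242 and 2093 ± 156 in Klf5KO. Under quantile normalization 55 were higher in EgfrKO and 3 in Klf5KO. Many ribosomal protein genes have processed pseudogenes of near-identical sequence, so single values are uncertain. Of 23 nuclear-coded subunits of the respiratory chain, 13 were higher in EgfrKO and 1 in Klf5KO on both scales (medians 0.16 and 0.36). The cytochrome oxidase subunits Cox5a and Cox5b differed by 0.38 ± 0.05 and 0.78 ± 0.09, and the succinate dehydrogenase subunit Sdha was the exception (-0.33 ± 0.06).

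**Figure D4:**
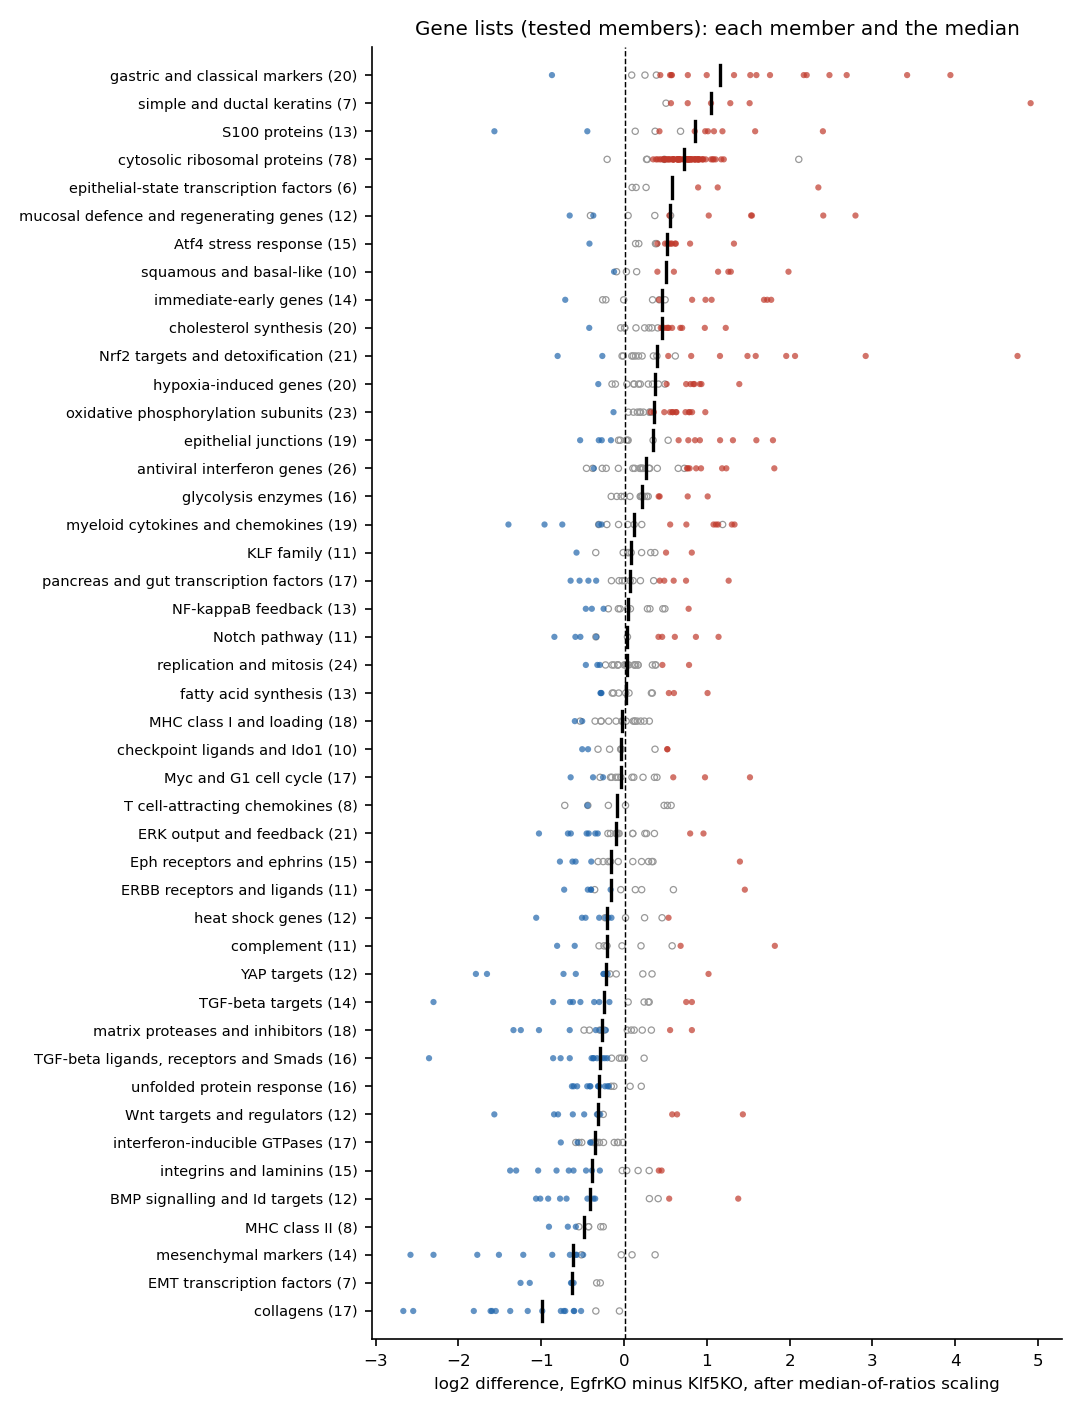
Each tested member of the 45 pathway lists by its log2 difference, EgfrKO minus Klf5KO, after median-of-ratios scaling, with a bar at the median of the list; filled points were called on both scales, red toward EgfrKO and blue toward Klf5KO, and the dashed line is the median of all genes, 0.01. The list of gastric and classical markers is at the top with a median of 1.16 and the collagens at the bottom with -0.99.

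Complement, Eph receptors and the cells of vessels complete the lists. Of 11 complement genes, 2 were higher in EgfrKO and 2 in Klf5KO on both scales (medians -0.40 and -0.21); C2 averaged 7.89 ± 0.934 TPM against 1.80 ± 0.714, and C3 119 ± 3.45 against 208 ± 12.1. Of 15 Eph receptors and ephrins, 1 was higher in EgfrKO and 4 in Klf5KO on both scales (medians -0.29 and -0.16), where the shares of all genes were 14.7% and 25.6%. The ligand Efna1 stood at 132, 119 and 119.7 TPM in EgfrKO and 44.4, 70.02 and 48.4 in Klf5KO, while the receptor Ephb4 and its ligand Efnb2 differed by -0.82 ± 0.08 and -0.79 ± 0.07. Of the 3 endothelial markers tested, Pecam1 and Cdh5 were higher in Klf5KO, at 2.92 ± 0.665 and 3.59 ± 0.346 TPM in EgfrKO and 4.99 ± 0.295 and 6.61 ± 1.06 in Klf5KO. Cldn5 was called on neither scale, and Kdr, Tek, Tie1, Vwf and Emcn were below the filter. Neither of the pericyte markers tested, Rgs5 and Cspg4, was called as deposited (-0.36 and -0.24), and the keratinocyte genes Krt1, Krt2, Flg2 and Krtdap were listed at 0 in all 6 libraries.

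Position along the genome was looked at after the data were seen, and the differences were not spread evenly over chromosomes. After scaling, the median log2 difference of the genes of a chromosome ran from -0.216 on chromosome 13 (491 genes) to 0.201 on chromosome 14 (448 genes). On chromosome 13, 8.76% of the genes were higher in EgfrKO and 46.4% in Klf5KO, and on chromosome 14, 46.9% and 12.3%, against 26.4% and 25.6% over all genes on that scale. Against the WT mean, the 3 EgfrKO libraries had medians of -0.159 to -0.134 on chromosome 13 and the 3 Klf5KO libraries 0.116 to 0.166. On chromosome 14, where Klf5 lies, the Klf5KO libraries had medians of -0.247 to -0.236 and the EgfrKO libraries -0.031 to -0.022. Chromosome 10 was higher than WT under both labels, at 0.150 to 0.157 in EgfrKO and 0.135 to 0.153 in Klf5KO (overlapping ranges). Chromosome 17 had a median difference of 0.152, chromosome 3 of 0.143 and the X chromosome of -0.131. The genes named above as higher in Klf5KO include Inhba, Esm1, Itga1 and Erap1 on chromosome 13, Armcx2 on the X chromosome and Stc1 on chromosome 14. Those named as higher in EgfrKO include Gata4 on chromosome 14, Crb3 on chromosome 17 and Car2, Efna1 and Fdps on chromosome 3. Csf1, Gbp5 and Cp on chromosome 3 and C3 on chromosome 17 were higher in Klf5KO. These genes are examples and not a full list.

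**Figure D5:**
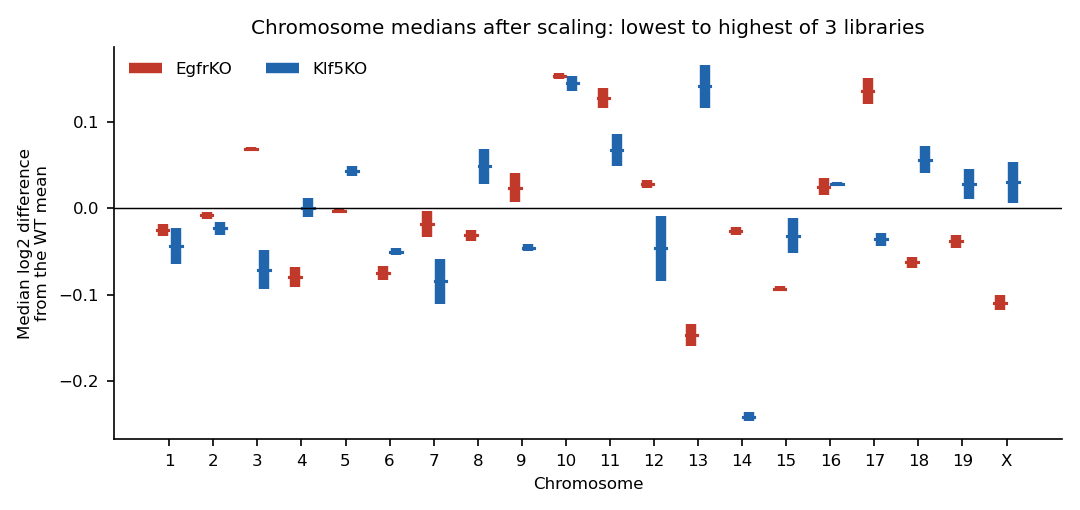
Median log2 difference from the WT mean, after scaling, of the genes of each chromosome; each bar runs from the lowest to the highest of the 3 libraries of a label, EgfrKO in red and Klf5KO in blue, with a dash at the middle. The Klf5KO libraries are lowest on chromosome 14 and the EgfrKO libraries on chromosome 13, and both labels are above 0 on chromosome 10.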

How the data were processed

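The data deposited by the authors are a single table of gene TPM with 12 columns, 1 a library. Salmon and mm10 were used, per the submitters' processing notes. The version of Salmon, the annotation and the summing step were not given in the sources used here. Each deposited column of TPM has the same sum, so a value is a share, and depth per sample is unknown. Columns were matched to samples by name. Symbols and coordinates were matched to RefSeq of GRCm38.p6, the assembly of mm10, for 13327 of the genes tested, and promoter windows for 10387.

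The 13662 genes that reached a TPM of 1 in 3 or more of the 12 libraries were tested on log2(TPM + 1) with limma 3.58.1 in R 4.3.3. One model with 4 label means, eBayes and a trend in the spread gave the contrast EgfrKO minus Klf5KO, with the Benjamini and Hochberg adjustment made over all of these genes (two-sided, threshold 0.05). The scale understates the change of low genes. No 2 libraries were identical. The script was tested on simulated data. Same-numbered libraries did not deviate together (correlations of 0.0183, 0.00988 and 0.0332), so replicate numbers were not used as pairs.

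Named genes are the targeted genes; the 15 largest differences per direction among called genes without overlap and with a mean TPM of at least 5 in the higher label; up to 5 members of each list with the smallest adjusted p; epithelial markers; in each list of cell type markers, the 2 with the highest mean TPM; and members that go against their list. Some genes that met the rule are not reported here by name, but the counts and medians of their lists include them. The lists, the members and the tests were chosen with earlier results of these data known, so list counts are descriptions and no list was tested. Alternatives were pseudocounts of 0.5 and 0.1, no filter and a filter at 5 TPM, 3 scalings, no trend, 6 libraries alone, a replicate block, a test against a difference of 0.5 and leaving out each library.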

Additional observations from a re-analysis of the deposited data

How the results depend on the processing

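The counts of called genes, 2007 higher in EgfrKO and 5528 higher in Klf5KO, depended on the scale and on the difference tested against. They were 3604 and 3491 after median-of-ratios scaling, with 2002 and 3491 of the genes called as deposited among them, and 3277 were higher in EgfrKO after quantile normalization. Tested against a log2 difference of 0.5 instead of 0, 323 and 730 remained, and Egfr (-0.58, adjusted p = 1.0) and Smad4 (-0.57, adjusted p = 0.841) were no longer called. The other planned settings moved neither count by over 1.5 times, and leaving out each library gave 1655 to 2018 and 4759 to 5547. Without 1 library the difference of Egfr ran from -0.72 to -0.45 (called except without Klf5KO replicate 2, adjusted p = 0.0518), that of Klf5 from -0.19 to -0.09 and that of Smad4 from -0.62 to -0.53. Klf5 changed sign to 0.060 after median-of-ratios scaling and to 0.0075 after quantile normalization, and Apoe to 0.19 after median-of-ratios scaling, to 0.064 when TPM was rescaled without ribosomal protein and small RNA genes, and to 0.11 without Klf5KO replicate 2 or 3 (its range without 1 library was -0.24 to 0.11); the cause was not tested. With the replicate block the counts were 2005 and 5531. The medians of 5 lists changed sign without some library: myeloid cytokines, glycolysis enzymes, general leukocytes, macrophages and neutrophils. Depth, which TPM does not keep, limits what can be said of genes near 0.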

Other observations

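The chromosome medians were followed within chromosomes, by dividing the genes of 4 chromosomes, in order of position, into 4 groups of nearly equal size; this was chosen after the data were seen. On chromosome 14 the scaled median log2 difference, EgfrKO minus Klf5KO, was 0.261, 0.192, 0.173 and 0.174 from 1 end to the other, and against WT the Klf5KO mean was below 0 in every group (-0.293, -0.272, -0.0937 and -0.243). On chromosome 13 the difference was -0.195, -0.139, -0.272 and -0.213, with EgfrKO below WT and Klf5KO above it in every group. On chromosome 3 it was 0.0677, 0.256, 0.132 and 0.120, and on chromosome 17 it was 0.189, 0.184, 0.170 and 0.0559. No test was made of these values, and genes of a chromosome are not independent replicates.

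The small RNA gene Mir6236 alone took 3.87% to 8.62% of TPM in the EgfrKO libraries and 6.93% to 8.93% in the Klf5KO libraries, with overlapping values.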
